A study of Mus musculus with 7 samples.

Results

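Complex I, or NADH:ubiquinone oxidoreductase, is the largest enzyme of the mitochondrial respiratory chain. It takes electrons from NADH, passes them along flavin and iron-sulfur centres to ubiquinone, and uses the energy to pump protons across the inner membrane. Its hydrophobic membrane core is encoded by mitochondrial DNA and all its other subunits are encoded in the nucleus, so the enzyme is assembled from products of both genomes. Assembly proceeds in modules: the N module oxidizes NADH, the Q module reduces ubiquinone, and the proximal (ND1 and ND2) and distal (ND4 and ND5) parts of the membrane arm hold the proton channels. The retinal pigment epithelium (RPE), the pigmented cell layer behind the photoreceptors, is rich in mitochondria and relies on oxidative phosphorylation.

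The mRNAs of 35 nuclear-encoded complex I subunits, chosen by gene symbol, were followed among the 52740 genes counted by RNA sequencing of RPE from WT and LC3b-/- mice. LC3b, encoded by Map1lc3b, is an ATG8-family protein that is attached to autophagosome and phagosome membranes. The WT group held 4 mice of strain C57BL6/J (females F1, F2 and F3 and male M1) and the LC3b-/- group 3 mice of strain B6;129P2-Map1lc3b tm1Mrab/J (females F1 and F3 and male M), all 24 months old and untreated as far as the labels say, with 1 library per mouse. The deletion is constitutive and not limited to the RPE, and the strains differ in name by more than the Map1lc3b allele, so effects of genetic background cannot be told apart from those of the deletion. The number that stands before F or M in a mouse's name is also never shared between genotypes. RPE was released with hyaluronidase and trypsin, and stranded libraries of polyadenylated RNA were read in single reads of 100 bases. P-values measure the spread between these 7 mice.

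The deposited values are estimated counts per gene, which sum to 24495952 to 34819720 in the WT libraries and 26704461 to 35616134 in the LC3b-/- libraries. Levels are given as CPM, counts scaled to a common library total by the TMM method, and per-library values follow the order F1, F2, F3, M1 for WT and F1, F3, M for LC3b-/-. Map1lc3b stood at 115 ± 11.2 CPM (SD, n = 4) in WT and 7.28 ± 0.901 CPM (SD, n = 3) in LC3b-/- and was lower in all 3 LC3b-/- libraries, as labelled. Of the 10 RPE markers, 9 were at 46.5 CPM or more in every library and Best1 was at 0.861 to 1.71 CPM. Their summed level was 31260 to 48119 CPM in WT and 14361 to 28888 CPM in LC3b-/-, and 9 of 10 had a log2 fold change below 0. The 8 markers of ocular surface epithelium summed to 8.87 to 2389 CPM in WT and 3224 to 22192 CPM in LC3b-/-, all 8 with a log2 fold change above 0, and Krt13 was at 0.0749 to 15.3 CPM in WT against 106 to 618 CPM in LC3b-/-. The 5 endothelial markers (312 ± 159 CPM in WT, 606 ± 41.2 CPM in LC3b-/-, SD, n = 4 and 3) and the 6 fibroblast markers (328 to 1371 against 836 to 1836 CPM) all had log2 fold changes above 0, and photoreceptor markers ranged from 23.8 to 19694 CPM within WT alone. The part of this cell composition in the values below was not tested. In bulk RPE, fewer cells of a type and less RNA per cell cannot be told apart.

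All 35 subunits were measured well above the filter on low counts, with 722 to 6835 counts per gene and library. Of the 35, 34 had lower estimates in LC3b-/- than in WT, against 48.8% of the 16990 genes tested. In edgeR's quasi-likelihood test 0 subunits passed the study's thresholds, a fold change of 1.5 or more with a Benjamini-Hochberg adjusted p under 0.05, which 0.235% of all genes tested passed (0.112% lower). An unadjusted p under 0.05 was reached by 17 subunits, all lower, against 10.6% of all genes; 0 were higher at that level, against 13.5% of all genes. In 19 subunits the 3 LC3b-/- libraries all lay below the 4 WT libraries, which held for 10.3% of all genes, and in 0 did they all lie above (12.0% of all genes). The median log2 fold change of the 35 was -0.30, or 19.0% lower, beside 0.01 over all genes. DESeq2's Wald test called 4 of the 35 (Ndufa12, Ndufc1, Ndufs5 and Ndufb11), all lower, where it called 10.8% of all genes, 3.66% lower and 7.12% higher. Ndufv3, Ndufa7, Ndufs7 and Ndufc2 also had a DESeq2 adjusted p under 0.05 (0.0180, 0.0344, 0.0229 and 0.0193), but lay under the fold threshold. The share of all genes with such a p at any fold change was not computed. The smallest edgeR adjusted p was 0.0580, for Ndufa12.

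**Figure D1:**
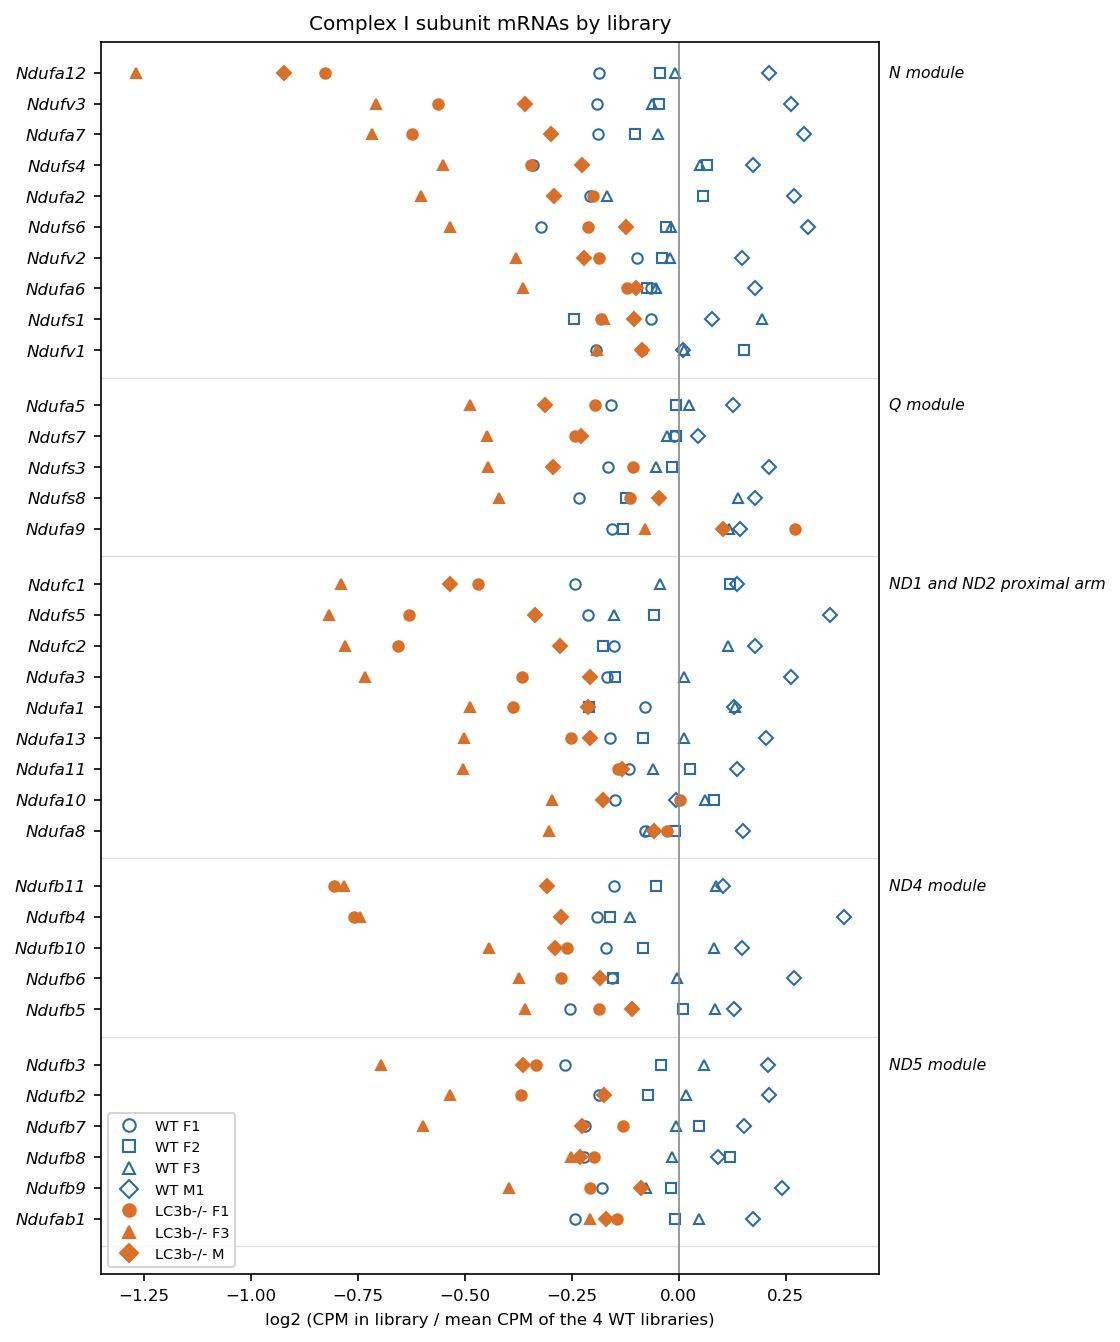
Level of each of the 35 complex I subunit mRNAs in each of the 7 libraries, as the log2 of its CPM over the mean of the 4 WT libraries, grouped by assembly module and ordered by fold change. Open blue symbols are WT and filled orange symbols LC3b-/-, 1 symbol shape per mouse; LC3b-/- F3 (filled triangles) is the lowest library in 29 of 35 rows and WT M1 (open diamonds) the highest in 29.

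The counts at an unadjusted p under 0.05 depended on single libraries. Without LC3b-/- F3, 6 subunits passed it (7.20% of all genes did, lower), without WT M1 10 (6.53%) and without WT F3 11 (7.84%), whereas without WT F1 22 passed (10.6%). The number of subunits whose groups did not overlap was 30 without WT F1. The share of all genes without overlap was not computed for that smaller set of libraries, in which separation is easier for any gene. The number lower stayed at 34 whichever library was left out, and the median log2 fold change lay between -0.37 and -0.25.

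Summed over the 35 subunits, the level was 2868, 3139, 3260 and 3659 CPM in the WT libraries and 2603, 2247 and 2748 CPM in the LC3b-/- libraries. The sums did not overlap, but WT F1 and LC3b-/- M lay within 120.4 CPM of each other. As a share of all counts, without TMM scaling, the subunits made up 0.281% to 0.356% in WT and 0.242% to 0.275% in LC3b-/-. LC3b-/- F3 had the lowest value of 29 subunits and WT M1 the highest of 29. With scaling by library size alone LC3b-/- F3 was lowest in 10 and LC3b-/- F1 in 19, so which LC3b-/- library was lowest rested on the scaling, while WT M1 stayed highest in 25. Single LC3b-/- libraries lay below all 4 WT libraries in 22 subunits for F1, 31 for F3 and 24 for M. The shares of all genes for these counts by single library were not computed. WT M1 was also the library with the highest summed RPE markers (48119 CPM), and the 3 LC3b-/- libraries were the lowest for both sums. Ttr (18326 CPM) and Rgr (15172 CPM) were the largest terms of that marker sum in WT M1. Ttr, Rgr, Rlbp1, Rpe65 and Rdh5 were highest in WT M1, but Lrat, Best1 and Tyrp1 were not. Dct (1120 CPM) and Pmel (50.1 CPM) were lower in WT M1 than in any other WT library.

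**Figure D2:**
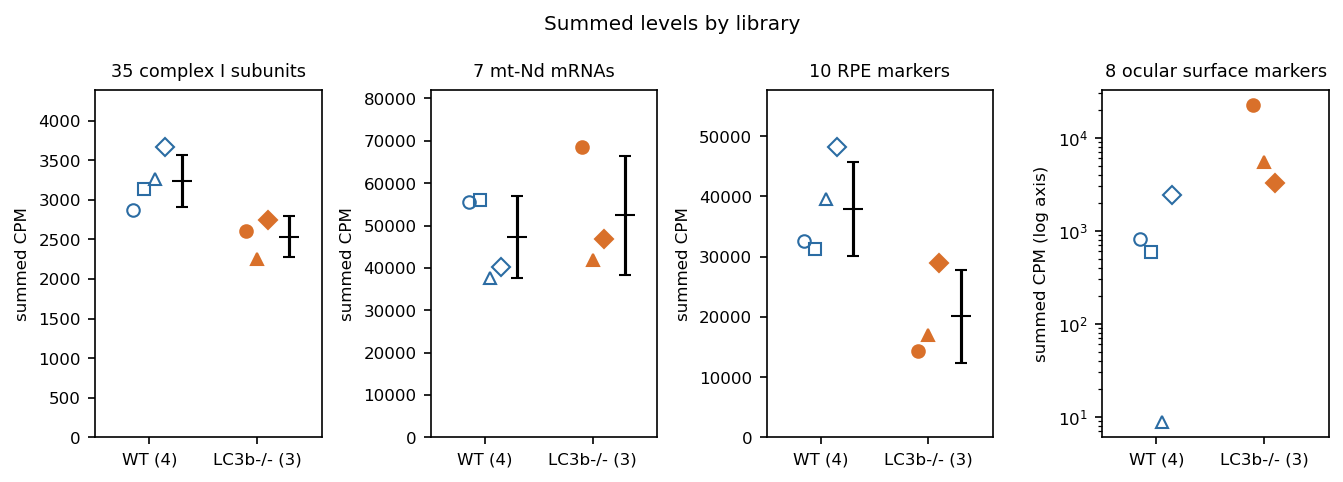
Summed CPM per library of the 35 nuclear complex I subunits, the 7 mitochondrially encoded complex I mRNAs, 10 RPE markers and 8 ocular surface markers (log axis), with the symbols of the plot by library. Bars give mean ± SD on the linear axes. The sums of the subunits and of the RPE markers do not overlap between the groups, whereas that of the mitochondrially encoded mRNAs does.

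The N module binds NADH at the tip of the peripheral arm. All 10 of its members had lower estimates (median log2 fold change -0.32), 5 at an unadjusted p under 0.05 (10.6% of all genes were lower at that level). On the deposited counts the largest difference among the 35 was that of Ndufa12 (ENSMUSG00000020022, GRCm39 chr10:94034582-94057450). It was no longer the largest once the counts of a copy were added. Ndufa12 is an accessory subunit at the joint of the N and Q modules. It takes over the site held during assembly by its paralog Ndufaf2. Ndufa12 was at 75.9, 83.9, 85.9 and 99.9 CPM in the WT libraries and at 48.7, 35.9 and 45.6 CPM in the LC3b-/- libraries. The groups were far apart, with no overlap, and means were 86.4 ± 9.99 and 43.4 ± 6.68 CPM (SD, n = 4 and 3), a log2 fold change of -0.99 (SE 0.15, edgeR adjusted p = 0.0580). DESeq2 gave an adjusted p of 2.82e-06 for it.

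Ndufa12 has a near-identical copy, whose counts differed in the opposite direction. Ndufa12-ps (ENSMUSG00000080893) is a processed pseudogene at GRCm39 chr5:130217236-130217637, inside Rabgef1 on the same strand, where 0 annotated exons of Rabgef1 overlap it. Its 402 bases align to the coding sequence of the Ndufa12 canonical transcript of GENCODE vM39 at 99.5% identity, with 2 substitutions, A225G and T504C, counted from 1 at the 5′ end of the Ndufa12 transcript. A read of 100 bases that covers neither position is identical in both. The stretches around both positions are shown because, within the aligned bases, only reads across them separate parent and copy; the capital letter is the base that differs.
Ndufa12, positions 195 to 255: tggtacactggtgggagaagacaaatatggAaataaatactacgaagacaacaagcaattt
Ndufa12-ps, positions 69 to 129: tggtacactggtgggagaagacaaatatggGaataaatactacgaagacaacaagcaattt
Ndufa12, positions 474 to 528: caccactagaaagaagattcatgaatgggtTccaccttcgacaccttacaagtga
Ndufa12-ps, positions 348 to 402: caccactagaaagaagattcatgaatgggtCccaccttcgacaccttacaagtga

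The copy was assigned 76, 41, 55 and 30 estimated counts in WT and 585, 712 and 738 in LC3b-/-. It thus took 1.14% to 2.85% of the joint counts of both genes in WT and 32.3% to 33.2% in LC3b-/-. The log2 fold change of the copy was 3.56 (SE 0.26, edgeR adjusted p = 0.00547). Rabgef1, the gene around it (named after the location of the copy was seen), stood at 49.9 to 106 CPM in WT and 57.2 to 80 CPM in LC3b-/-, a log2 fold change of -0.01 (SE 0.27, edgeR adjusted p = 0.989). With the counts of parent and copy added, the joint level was 78.1, 85.6, 88 and 101 CPM in WT and 72.3, 53.8 and 67.4 CPM in LC3b-/-. The groups still did not overlap. The log2 fold change was then -0.45 (SE 0.14, unadjusted p = 0.0147, edgeR adjusted p = 0.132), smaller than that of Ndufa12 alone and no longer the largest of the 35 (Ndufb11 had -0.61). DESeq2 gave -0.47 for Ndufa12 with its pseudogene copy (adjusted p = 0.0471), under the fold threshold, so its call of Ndufa12 was lost as well. Whether the counts of the copy came from reads of the parent or from a transcript of its own was not tested. The sum of both therefore need not measure Ndufa12 better than its own counts do. The deletion and the strain background cannot be told apart here.

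**Figure D3:**
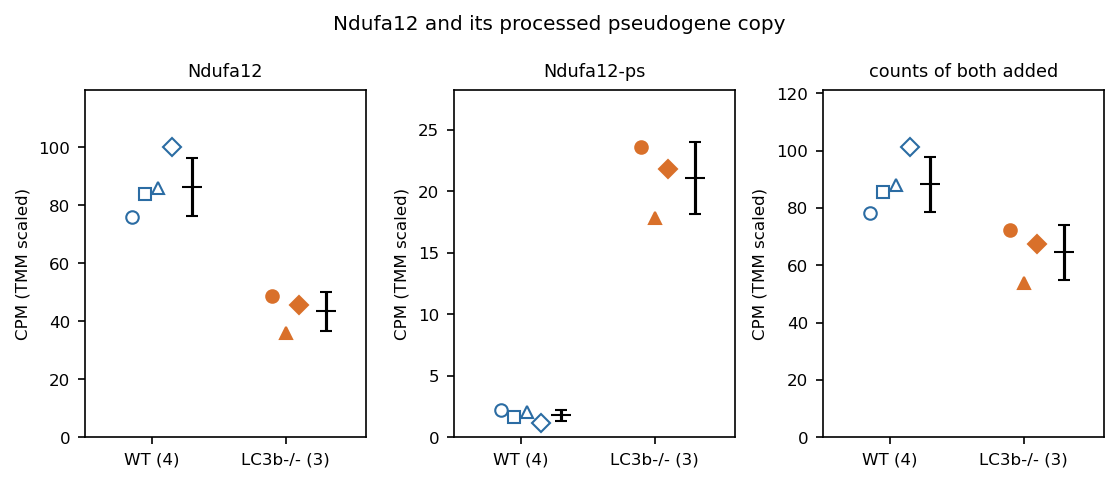
CPM of Ndufa12, of its pseudogene copy Ndufa12-ps and of both added, per library (open blue WT, filled orange LC3b-/-, 1 shape per mouse), with mean ± SD. The copy is at 1.15 to 2.22 CPM in WT and 17.9 to 23.6 CPM in LC3b-/-, and adding it narrows the gap between the groups.

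Ndufv3, a small accessory subunit bound to the NADH-binding part, had the next smallest p of the module. The WT libraries held 145, 160.4, 158 and 198 CPM of Ndufv3, and the LC3b-/- libraries 112, 101 and 129 CPM. The groups did not overlap, and means were 165 ± 23 and 114 ± 14 CPM (SD, n = 4 and 3), a log2 fold change of -0.54 (SE 0.15, edgeR adjusted p = 0.111). Ndufa7, an accessory subunit of the peripheral arm, was at 81.0 to 113 CPM in WT and 56.2 to 75.1 CPM in LC3b-/-, without overlap (log2 fold change -0.53, edgeR adjusted p = 0.122).

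The catalytic core of the N module differed less. Ndufv1 carries the flavin that accepts electrons from NADH. Levels of Ndufv1 were 112, 143, 129 and 129 CPM in WT and 121, 112 and 121 CPM in LC3b-/-. The groups overlapped, and means were 128 ± 12.5 and 118 ± 4.91 CPM (SD, n = 4 and 3), a log2 fold change of -0.12 (SE 0.12, edgeR adjusted p = 0.554). Ndufs1, which holds several of the iron-sulfur clusters, also overlapped. Ndufs1 stood at 86, 86.3 and 90.6 CPM in LC3b-/-, where WT had 93.2, 82.3, 112 and 103 CPM. Group means were 97.5 ± 12.6 and 87.6 ± 2.59 CPM (SD, n = 4 and 3), a log2 fold change of -0.15 (SE 0.13, edgeR adjusted p = 0.483). Ndufv2, the iron-sulfur partner of Ndufv1, did not overlap. Ndufv2 was at 101, 105, 106 and 119 CPM in the WT libraries and at 94.6, 82.7 and 92.3 CPM in the LC3b-/- libraries. The difference was small, and means were 108 ± 8.04 and 89.9 ± 6.29 CPM (SD, n = 4 and 3), a log2 fold change of -0.26 (SE 0.11, edgeR adjusted p = 0.202). Among the remaining accessory subunits, the log2 fold change was -0.37 for Ndufs4 (unadjusted p = 0.0424), a late-joining subunit whose loss causes Leigh syndrome, -0.35 for Ndufa2, which has a thioredoxin-like fold, -0.28 for the zinc-binding Ndufs6 and -0.19 for Ndufa6, which anchors an acyl carrier protein. Of these 4, only Ndufa6 had groups that did not overlap.

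The Q module carries the terminal iron-sulfur cluster and the ubiquinone site. Its median log2 fold change was -0.28, with 4 of 5 members lower and 2 at an unadjusted p under 0.05 (10.6% of all genes, lower). Ndufs7 lies next to the ubiquinone site and holds the terminal cluster. The WT libraries held 86.7, 86.8, 85.6 and 90 CPM of Ndufs7, and the LC3b-/- libraries 73.8, 64 and 74.5 CPM. WT values lay within 4.44 CPM of each other, the groups did not overlap, and means were 87.3 ± 1.91 and 70.8 ± 5.85 CPM (SD, n = 4 and 3), a log2 fold change of -0.30 (SE 0.10, edgeR adjusted p = 0.137). Ndufa5 is an accessory subunit of the same module. Levels of Ndufa5 were 47.2, 52.5, 53.6 and 57.5 CPM in WT and 46, 37.6 and 42.4 CPM in LC3b-/-. Its groups were separate by 1.18 CPM, and means were 52.7 ± 4.25 and 42 ± 4.25 CPM (SD, n = 4 and 3), a log2 fold change of -0.33 (SE 0.12, edgeR adjusted p = 0.160). Ndufs3, a core subunit of the module, showed overlap. Ndufs3 stood at 88.3, 69.8 and 77.5 CPM in LC3b-/-, where WT had 84.7, 94, 91.5 and 109.9 CPM. Group means were 95 ± 10.7 and 78.5 ± 9.30 CPM (SD, n = 4 and 3), a log2 fold change of -0.28 (SE 0.13, edgeR adjusted p = 0.252). Ndufs8, the other cluster-holding core subunit, overlapped more widely. Ndufs8 was at 55.9, 60.4, 72.4 and 74.4 CPM in the WT libraries and at 60.8, 49.2 and 63.6 CPM in the LC3b-/- libraries. Group means were 65.8 ± 9.02 and 57.9 ± 7.66 CPM (SD, n = 4 and 3), a log2 fold change of -0.18 (SE 0.15, edgeR adjusted p = 0.474).

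Ndufa9 (ENSMUSG00000000399, GRCm39 chr6:126798684-126826117), which joins the peripheral to the membrane arm and binds NADPH, was the exception to the lower estimates. The WT libraries held 65.3, 66.5, 79 and 80.3 CPM of Ndufa9, and the LC3b-/- libraries 87.8, 68.9 and 78.1 CPM. LC3b-/- F1 was the highest of the 7 libraries and the other two lay within the WT range. The estimate was above 0, and means were 72.8 ± 7.99 and 78.3 ± 9.45 CPM (SD, n = 4 and 3), a log2 fold change of 0.10 (SE 0.13, edgeR adjusted p = 0.659). Its estimate was lowest, at 0.01, without LC3b-/- F1, and 0.17 without LC3b-/- F3.

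The proximal membrane arm surrounds the mitochondrially encoded ND1 and ND2. All 9 members had lower estimates (median log2 fold change -0.36), 5 at an unadjusted p under 0.05 and 7 without overlap between the groups. Of all genes, 10.6% were lower at that p and 10.3% lay below WT without overlap. Ndufc1 and Ndufc2 are small membrane subunits beside ND2. Levels of Ndufc1 were 52.2, 67.1, 59.9 and 67.9 CPM in WT and 44.7, 35.8 and 42.7 CPM in LC3b-/-. The 3 LC3b-/- values lay 7.55 CPM or more below the WT range, and means were 61.8 ± 7.31 and 41 ± 4.67 CPM (SD, n = 4 and 3), a log2 fold change of -0.59 (SE 0.14, edgeR adjusted p = 0.0951). Ndufc2 stood at 105, 96.6 and 137 CPM in LC3b-/-, where WT had 149, 147, 179.6 and 187 CPM. For Ndufc2 too the groups were separate, and means were 166 ± 20.8 and 113 ± 21.2 CPM (SD, n = 4 and 3), a log2 fold change of -0.55 (SE 0.17, edgeR adjusted p = 0.122). Ndufs5 is a disulfide-bonded subunit on the intermembrane-space face. Ndufs5 was at 98.3, 109, 103 and 145 CPM in the WT libraries and at 73.7, 64.7 and 90.3 CPM in the LC3b-/- libraries. WT M1 stood well above the other WT libraries, and means were 114 ± 21.5 and 76.2 ± 13 CPM (SD, n = 4 and 3), a log2 fold change of -0.58 (SE 0.18, edgeR adjusted p = 0.130).

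The log2 fold change was -0.42 for Ndufa3 (unadjusted p = 0.0394) and -0.36 for the X-linked Ndufa1 (unadjusted p = 0.0259), both single-span membrane subunits. Ndufa1 was separated by little: its highest LC3b-/- value was 60.1 CPM and its lowest WT value 60.2 CPM. It was -0.31 for Ndufa13, also known as GRIM-19, and -0.25 for Ndufa11, both without overlap and both above an unadjusted p of 0.05. Ndufa10, which has a nucleoside kinase fold, and Ndufa8, a cysteine-rich subunit of the intermembrane-space face, overlapped between groups (log2 fold changes -0.15 and -0.12).

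The distal membrane arm is built around ND4 and ND5. Within the ND4 part all 5 members had lower estimates (median log2 fold change -0.33). Of these, 3 had an unadjusted p under 0.05 (10.6% of all genes, lower) and 4 did not overlap (10.3%, below WT). Ndufb11 (ENSMUSG00000031059, GRCm39 chrX:20481563-20484457) is an X-linked membrane subunit. The WT libraries held 200.0, 214, 236 and 239 CPM of Ndufb11, and the LC3b-/- libraries 127, 129 and 179 CPM. LC3b-/- M lay nearer to WT than both LC3b-/- females, and means were 222 ± 18.4 and 145 ± 29.6 CPM (SD, n = 4 and 3), a log2 fold change of -0.61 (SE 0.16, edgeR adjusted p = 0.103). Ndufb4, a membrane subunit of the same part, showed the same order of LC3b-/- libraries. Levels of Ndufb4 were 49.9, 51, 52.7 and 74.4 CPM in WT and 33.7, 34 and 47.1 CPM in LC3b-/-. WT M1 stood apart from the other 3 WT libraries, and means were 57 ± 11.7 and 38.3 ± 7.65 CPM (SD, n = 4 and 3), a log2 fold change of -0.57 (SE 0.20, edgeR adjusted p = 0.148). The disulfide-bonded Ndufb10 had a log2 fold change of -0.33 (unadjusted p = 0.0270), Ndufb6 of -0.28 and Ndufb5 of -0.21, of which only Ndufb5 overlapped.

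In the ND5 part all 6 members had lower estimates (median log2 fold change -0.27). Among them 2 had an unadjusted p under 0.05 (10.6% of all genes, lower), and 1 was without overlap, near the 10.3% of all genes below WT. That member was Ndufb3, a single-span subunit at the far end of the arm. Ndufb3 stood at 78.6, 61.2 and 77 CPM in LC3b-/-, where WT had 82.4, 96.2, 103 and 114 CPM. WT F1 was the nearest to the LC3b-/- libraries, and means were 99.1 ± 13.4 and 72.3 ± 9.65 CPM (SD, n = 4 and 3), a log2 fold change of -0.45 (SE 0.15, edgeR adjusted p = 0.143). Ndufb2 was next by p and overlapped at its edges. Ndufb2 was at 45.9, 49.7, 52.9 and 60.5 CPM in the WT libraries and at 40.5, 36.1 and 46.3 CPM in the LC3b-/- libraries. Group means were 52.2 ± 6.17 and 40.9 ± 5.12 CPM (SD, n = 4 and 3), a log2 fold change of -0.35 (SE 0.14, edgeR adjusted p = 0.182). The log2 fold change was -0.30 for Ndufb7, -0.23 for Ndufb8 and -0.23 for Ndufb9, which like Ndufa6 binds an acyl carrier protein. It was -0.17 for Ndufab1, that acyl carrier protein itself, which also serves fatty acid synthesis and iron-sulfur cluster assembly in mitochondria. These 4 overlapped between the groups.

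Other subunits have near-identical copies as well. Ndufb4c is a transcribed processed pseudogene whose 390 bases are 100% identical to Ndufb4, so reads within it cannot be assigned. It held 33.9% to 41.2% of the joint counts, in both groups, and the log2 fold change was -0.58 for the copy and -0.58 for both added (edgeR adjusted p = 0.109). Gm4459, a copy of Ndufab1 (99.8% identical over 468 bases), held 29.3% to 36.9% of the joint counts, and both added gave -0.21. Ndufs5-ps held 6.15% to 11.8%, and both added gave -0.55 (edgeR adjusted p = 0.146). With the counts of all copies of the 8 members that have one added to their parents, 34 of 35 estimates were lower, 17 at an unadjusted p under 0.05 (10.6% of all genes in that fit), and 0 were called (0.230% of all genes). The shares of these 3 copies overlapped between the genotypes, whereas those of Ndufa12-ps did not.

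Most of the 35 mRNAs are short, and the median estimate of short transcripts was below 0. Among other protein-coding genes, by the shortest transcript with a consensus coding sequence, the median log2 fold change was -0.13 under 1 kb (924 genes), -0.03 from 1 to 2 kb, 0.02 from 2 to 4 kb and 0.08 over 4 kb. The subunits lay below the genes of their class in each: -0.33 for the 21 under 1 kb, -0.27 for 8, -0.28 for 3 and -0.23 for the 3 over 4 kb. Among the 4843 other protein-coding genes in the same range of mean level (30.6 to 189 CPM), 55.7% were lower, 15.2% were lower at an unadjusted p under 0.05 and 12.7% lay without overlap below WT. The part of transcript length in the subunit values was not tested.

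**Figure D4:**
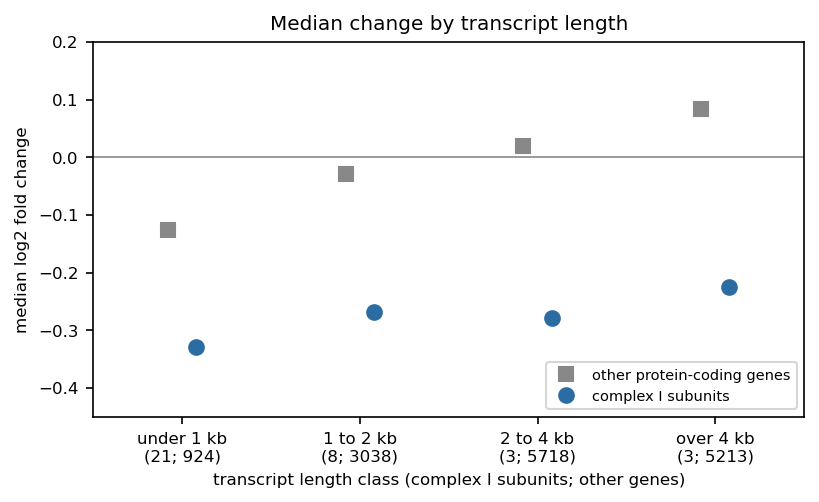
Median log2 fold change by transcript length class for the complex I subunits (blue circles) and all other protein-coding genes tested (grey squares), with the number of each under the class. The grey medians run from -0.13 in the shortest class to 0.08 in the longest, and the blue medians from -0.33 to -0.23.

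Ndufb1, a nuclear subunit outside the 35, gave a log2 fold change of -0.30, above an unadjusted p of 0.05. Assembly factors are not part of the finished enzyme but build its modules. Of 18 measured, 17 had lower estimates (median log2 fold change -0.27), against 48.8% of all genes. An unadjusted p under 0.05 was reached by 6, all lower, against 10.6% of all genes. The 4 with the smallest p were Ndufaf3 and Ndufaf4, which act together on the Q module (24.6 ± 1.35 against 17.1 ± 1.96 CPM and 16.1 ± 1.5 against 11.2 ± 0.257 CPM, SD, n = 4 WT and 3 LC3b-/-), Ndufaf7, a mitochondrial methyltransferase (27.8 ± 4.94 against 18.6 ± 2.31 CPM), and Lyrm2 (28.1 ± 4.35 against 17.6 ± 4.94 CPM). Their log2 fold changes were -0.52, -0.52, -0.58 and -0.68, and the smallest edgeR adjusted p was 0.0952. DESeq2 called Ndufaf7 and Lyrm2, both lower, where it called 3.66% of all genes lower. Acad9, which also oxidizes fatty acids, was the one with a higher estimate (0.14, edgeR adjusted p = 0.646).

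Complex I receives its iron-sulfur clusters from a mitochondrial assembly line. All 13 genes of that list had lower estimates (48.8% of all genes did), 4 at an unadjusted p under 0.05 (10.6%). Those 4 had log2 fold changes of -0.57 for Bola3, -0.44 for Isca2, -0.57 for Isca1 and -0.52 for Hscb. Subunits of the other complexes also had mostly lower estimates. The counts were 4 of 4 for complex II (median log2 fold change -0.27), 9 of 9 for complex III (-0.28), 10 of 11 for complex IV (-0.27) and 16 of 17 for ATP synthase (-0.26). Those at an unadjusted p under 0.05 were 2, 4, 3 and 5, all lower, against 10.6% of all genes. Sdhc, a membrane anchor of complex II, had a log2 fold change of -0.57 (edgeR adjusted p = 0.0869). It was -0.37 for Uqcrfs1, the iron-sulfur protein of complex III, -0.54 for Cox8a and -0.70 for Atp5mj. DESeq2 called Sdhc, Atp5mj, Atp5me and, of the iron-sulfur list, Bola3 (adjusted p = 1.73e-05, 0.00512, 0.00983 and 0.00611), all lower. It called 0 subunits of complexes III and IV, and 3.66% of all genes lower. In ratio to the summed level of complex III the 35 subunits stood at 2.45 to 2.48 in WT and 2.25 to 2.39 in LC3b-/-, and to ATP synthase at 0.761 to 0.807 and 0.706 to 0.725, neither overlapping. The ratio to complex IV (1.49 to 1.53 and 1.41 to 1.51) overlapped, so the relation depended on which of these complexes complex I was set against. A ratio to complex II was not computed.

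**Figure D5:**
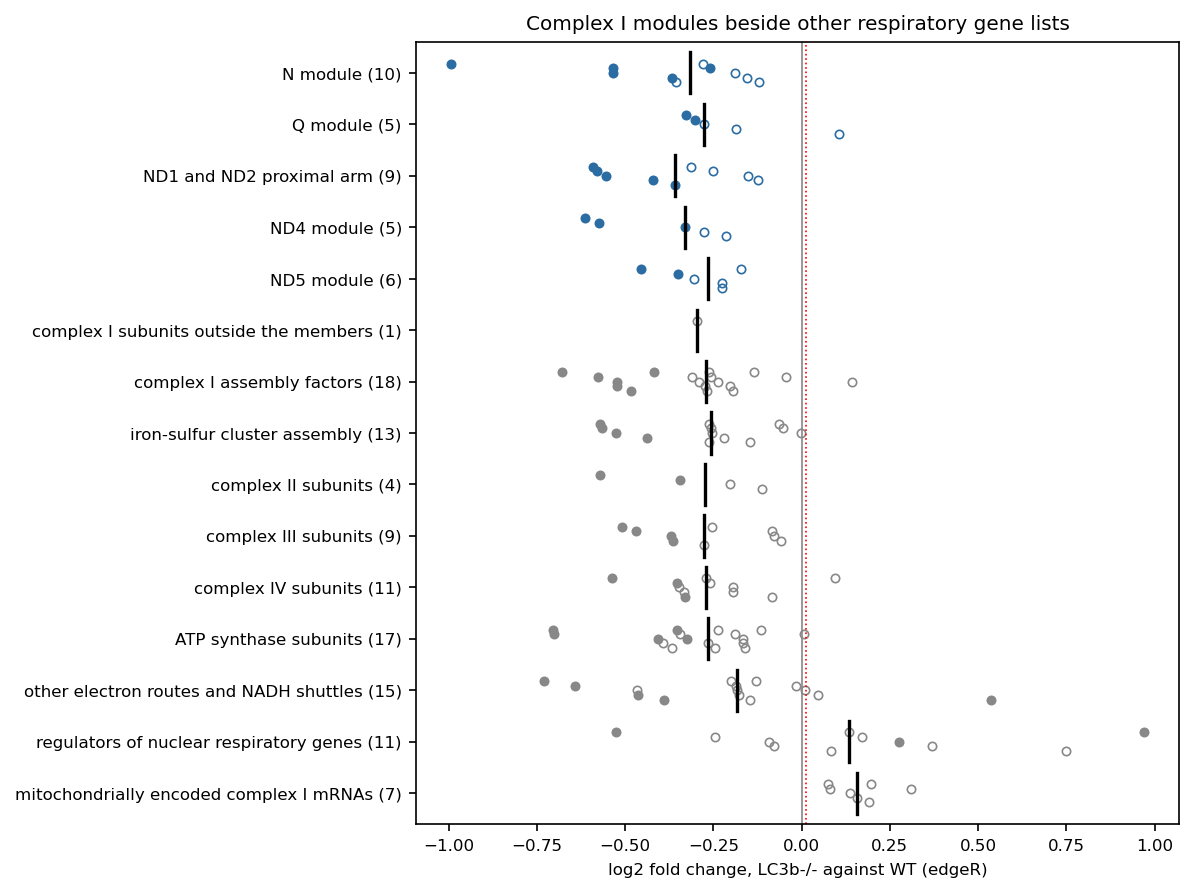
Log2 fold change (LC3b-/- against WT, edgeR) of each gene in the 5 complex I modules (blue) and in the other respiratory lists (grey), with the number of genes in brackets. Filled points have an unadjusted p under 0.05, black bars are medians and the dotted line is the median of all genes tested (0.01); the 5 complex I medians lie between -0.36 and -0.27 and that of the mitochondrially encoded mRNAs at 0.16.

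The mitochondrially encoded partners had estimates above 0. All 7 mt-Nd mRNAs had log2 fold changes between 0.07 (mt-Nd3) and 0.31 (mt-Nd4l), median 0.16, with 0 at an unadjusted p under 0.05 and all overlapping between groups. Their summed level was 55460, 55914, 37546 and 40312 CPM in WT and 68421, 41963 and 46876 CPM in LC3b-/-. LC3b-/- F1 was the highest of all and the other 2 lay inside the WT range. Without LC3b-/- F1 the median turned to -0.10, so the direction rested on 1 library. The ratio of the 35 nuclear subunits to these mRNAs was 0.0517, 0.0561, 0.0868 and 0.0908 in WT and 0.0380, 0.0535 and 0.0586 in LC3b-/-, which overlaps.

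Electrons also reach ubiquinone without complex I, and those of cytosolic NADH enter mitochondria through shuttles. Of the 15 genes of these routes, 12 had lower estimates (48.8% of all genes did), 4 of them at an unadjusted p under 0.05 (10.6%). These were Prodh, proline dehydrogenase (log2 fold change -0.73), Etfb, which carries electrons from fatty acid oxidation (-0.64), Slc25a11 (-0.46) and Mdh1 (-0.39), both of the malate-aspartate shuttle. Gpd2, the mitochondrial glycerol-3-phosphate dehydrogenase, was the 1 higher at that level (0.54, unadjusted p = 0.0499), as were 13.5% of all genes. Its levels were 29 to 42 CPM in WT and 37.6 to 70.1 CPM in LC3b-/-, which overlap. DESeq2 called Prodh and Etfb of this list (adjusted p = 0.00226 and 0.0211), where it called 3.66% of all genes lower.

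Of 11 regulators of nuclear respiratory genes, 4 had lower estimates, against 48.8% of all genes. At an unadjusted p under 0.05, 1 was lower and 2 were higher, where 10.6% of all genes were lower and 13.5% higher. Ppargc1a, the coactivator PGC-1α, was at 38, 39.1, 49 and 43.7 CPM in WT and 21.6, 29.2 and 37.6 CPM in LC3b-/- (log2 fold change -0.53, SE 0.20, edgeR adjusted p = 0.173). Pprc1, a related coactivator, was at 8.20 to 15.8 CPM in WT and 16.7 to 25.4 CPM in LC3b-/- (0.97, SE 0.26, edgeR adjusted p = 0.105). DESeq2 called Pprc1 of this list (adjusted p = 0.0124), where it called 7.12% of all genes higher. Gabpb2 had a log2 fold change of 0.27. Groups overlapped for Nrf1 (-0.09), Gabpa (-0.08), Esrra (0.14), Yy1 (0.08) and Tfam (-0.24), none at an unadjusted p under 0.05.

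Letters of motifs known from promoters of respiratory and housekeeping genes, none of which holds another, were searched on both strands from 250 bases before to 30 bases after the start of the canonical transcript, in the 35 subunits and in all 14928 protein-coding genes tested. The NRF1 motif GCATGCGC was present in 2 of 35 windows (4.03% of all), the ETS and GABP motif CCGGAAG in 3 (12.6%), the YY1 motif AAGATGGC in 2 (2.07%), the ERR motif TCAAGGTCA in 0 (0.362%), the Sp1 motif GGGCGG in 12 (53.1%) and TATAAA in 5 (8.17%). Only these exact letters were searched, so shorter or variant forms of a motif were not counted. The window of Ndufa12, the subunit with the largest difference before its copy's counts were added, holds none of these letters. That of Ndufa9, the one subunit with a higher estimate, holds the YY1 letters (capitals), which begin at base 11 of the transcript. Ndufa3, the other subunit that holds them, had a log2 fold change of -0.42.
Ndufa12, GRCm39 chr10:94034567-94034846, plus strand: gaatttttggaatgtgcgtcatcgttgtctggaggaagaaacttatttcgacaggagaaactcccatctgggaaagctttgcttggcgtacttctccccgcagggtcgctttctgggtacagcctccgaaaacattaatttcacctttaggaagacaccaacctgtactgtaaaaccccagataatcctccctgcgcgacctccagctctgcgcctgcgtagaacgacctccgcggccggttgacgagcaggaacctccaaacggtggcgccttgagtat
Ndufa9, GRCm39 chr6:126826059-126826338, minus strand: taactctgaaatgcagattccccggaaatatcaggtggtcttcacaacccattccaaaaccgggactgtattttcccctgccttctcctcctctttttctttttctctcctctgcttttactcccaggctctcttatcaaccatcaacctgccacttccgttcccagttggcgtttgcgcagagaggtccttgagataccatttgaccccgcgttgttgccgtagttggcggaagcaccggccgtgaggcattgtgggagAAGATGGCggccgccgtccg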

How the data were processed

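RNA was measured in 7 RPE libraries, 4 WT and 3 LC3b-/-. Per the methods and labels, the authors quantified reads with salmon against GENCODE vM26 (GRCm39) and brought them to gene level with tximeta. The deposited values are these estimated counts as whole numbers, unscaled. Salmon's options are not given in the sources used here; it shares reads among near-identical transcripts by its model, which bears on subunits with pseudogene copies. Symbols and coordinates are from GENCODE vM39 (51721 of 52740 identifiers matched).

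Counts were tested in R 4.3.3 with edgeR 4.0.16 (filterByExpr, TMM, quasi-likelihood test between the 2 genotypes with no covariate, Benjamini-Hochberg over the 16990 genes kept). DESeq2 1.42.0, the study's tool, was an alternative; others were DESeq2 size factors, library size alone, no filter, a minimum of 10 counts per library, a sex term, the female mice alone, a replicate block by mouse name, and each library left out. Adding the counts of copies to their parents was chosen after seeing the data. Copies are annotated pseudogenes that BLAST 2.17.0 aligned to a member (95% identity or more over 100 bases and 80% of the copy). The code was tested on simulated data.

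The 35 members and all lists were chosen with earlier results of these data known. Values in every library are given for Ndufv1, Ndufv2, Ndufs1, Ndufs3, Ndufs7 and Ndufs8, the 2 members of each module with the smallest p, and members called by either tool. Of other lists, up to 4 genes with an unadjusted p under 0.05 are named; Ndufa9, Rabgef1, Acad9, Krt13, Best1 and further regulators were added after their values were seen. One gene of the listed pathways is not reported here.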

Additional observations from a re-analysis of the deposited data

Results flagged for a closer look

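Among the 35 subunits, each tested for a WT library that stood apart from the other 3, 2 were marked, where chance marks about 1 in 20. Ndufa6 was at 61.2 CPM in WT M1, with the next WT library at 52.1 CPM. Ndufb4 was at 74.4 CPM in WT M1, with the next at 52.7 CPM; without WT M1 its log2 fold change was -0.42 in place of -0.57.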

How the results depend on the processing

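Of the 35 subunits, edgeR called 0, and DESeq2's Wald test called 4. The count was 1 (Ndufa12) with library size alone (0.288% of all genes called), with no filter on low counts (0.271%) and with at least 10 counts in every library (0.319%), and 2 (Ndufa12 and Ndufb4) with sex as a covariate (197 of 16990 genes), against 0.235% of all genes (40) with the settings as reported. Leaving out 1 library gave 0 to 2 called (Ndufa12 without WT F1, where 1.28% of all genes were called; Ndufa12 and Ndufb11 without LC3b-/- M, where 2.76% were), 6 to 22 at an unadjusted p under 0.05 (6 without LC3b-/- F3, 10 without WT M1, 11 without WT F3), 18 to 30 without overlap between groups, and medians of -0.37 to -0.25. For the counts without overlap, the share of all genes was not computed in the fits that left out a library. The median of the mitochondrially encoded complex I mRNAs ranged from -0.10 (without LC3b-/- F1) to 0.28 (without LC3b-/- F3), against 0.16 with all libraries. With the counts of its copy added, Ndufa12 was called in none of these fits. The causes were not tested. All alternatives left 34 of 35 subunits lower. Library size alone moved the median of all genes to 0.06. Ordered by level per kilobase, the 10 highest subunits shared 6 with the order by the union of exons in place of the shortest consensus transcript, so no order of levels is given.

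The replicate labels did not pair the samples: the correlation of deviations from group means was 0.15 for F1, 0.24 for F3 and -0.17 for the males, who were matched by sex since the LC3b-/- male has no replicate number. With these labels as a replicate block, 0 of 35 subunits were called, 13 had an unadjusted p under 0.05 (11.6% of all genes did, lower) and 34 were lower, and edgeR called 1 gene of all tested in place of 40.

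Each subunit had at least 722 counts per library. Estimated counts of subunits with near-identical copies carry an uncertainty from read sharing that the deposited counts do not hold.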
